A study of Mus musculus with 20 samples.

Results

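The signal peptidase complex and its retrotransposed relatives were examined in a mouse line of motor neuron character, NSC-34, in which HuD was induced or not. The set comprised 7 genes, Arxes1, Arxes2, Spcs1, Spcs2, Spcs3, Sec11a and Sec11c, of 14924 genes with RNA-Seq and POL-Seq counts. Arxes2 was chosen by its change in polysomal RNA beside its change in total RNA, and the other members were taken because they are related to it or belong to the same complex. The values of Arxes2 in RNA-Seq and POL-Seq are therefore given as a description, without a test. All 7 members were in the RNA-Seq and POL-Seq table and passed its filter on low counts, 6 were in the 3′ end table (Spcs2 had no line there), and 2 were in the table of HuD binding sites.

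HuD (the product of Elavl4) is a neuronal RNA-binding protein of the ELAV family that binds U-rich stretches, mostly in 3′UTRs. RNA-Seq measured the total RNA of 2 control and 2 HuD libraries, POL-Seq the polysomal RNA in 2 and 2, and 3′ end sequencing the polyadenylated ends in 3 and 3. By the methods, polysomal and total RNA were both extracted from pooled fractions of sucrose gradients loaded with cytoplasmic lysate. The HuD cells of these assays were a TetR-expressing NSC-34 derivative (Trex) carrying a lentiviral, inducible, His-HA tagged human HuD, treated with tetracycline at 2 µg/ml over 48 h. The labels call the other cells only control and give no treatment for them in these assays. For CRAC, which maps crosslinked sites, Trex-HuD cells and control Trex cells both received tetracycline, at 10 µg/ml over 24 h, with 3 libraries each that the authors pooled. The methods elsewhere name doxycycline as the inducer, and the model is an overexpression of a human protein from a CMV promoter in a line that also expresses its own Elavl4.

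In the endoplasmic reticulum, the signal peptidase complex cuts the signal peptide from secretory and membrane proteins as they enter through the Sec61 channel. Sec11a and Sec11c are alternative catalytic subunits, while Spcs1, Spcs2 and Spcs3 are accessory subunits, of which Spcs3 is required for activity. Arxes1 and Arxes2 are intronless X-linked copies of Spcs3, known from adipocytes as targets of the nuclear receptor PPARγ.

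The total count per library was between 21296012 and 36284728 for RNA-Seq and POL-Seq, and between 10154410 and 12295094 for 3′ ends. The lowest total was that of POL-Seq control replicate 2. With POL-Seq control replicate 1 left out, so that replicate 2 stood alone, the genes under an unadjusted p of 0.05 in the polysomal comparison went from 622 to 3262, so polysomal and TE changes of the members are also given without each of the 2. Elavl4 was at 78.3 and 97.4 CPM (counts scaled to library size) in control and 237 and 212 CPM in HuD total RNA, and at 90.3 and 118 CPM in control and 243 and 225 CPM in HuD polysomal RNA. Its fitted change was 1.35 ± 0.15 (SE) in total RNA and 1.17 ± 0.15 in polysomal RNA on the log2 scale, with adjusted p of 0.0866 and 0.282 in edgeR's quasi-likelihood test, and the share of these reads that came from the human cDNA was not tested. Of 10 neuronal or motor neuron markers, 9 had counts, led by Tubb3 with 599 CPM in control total RNA, while Mnx1 was not listed in the table of 14924 genes. Of 5 fibroblast markers 0 were listed, and of 6 glial markers 3. Among 7 adipocyte markers, Adipoq, Fabp4, Cidec and Lpl were not listed and Pparg had 24.1 CPM. In bulk RNA, fewer cells expressing a gene and less RNA per cell cannot be told apart.

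The near-identity of the Arxes copies decides which part of each transcript can be counted, so their sequences come first. Arxes1 (X:136033367-136034946, plus strand) and Arxes2 (X:135993824-135995355, plus strand, GRCm38) each have 1 exon, and their coding sequences of 543 nt differ at 0 positions. The coding sequence of Spcs3 (8:54520433-54529998, minus strand, 5 exons) also has 543 nt and differs from both at 114 positions, an identity of 79.0%. The first 90 coding bases are shown for both copies and for the parent gene, with the 12 positions at which they differ in capitals.
Arxes1 and Arxes2: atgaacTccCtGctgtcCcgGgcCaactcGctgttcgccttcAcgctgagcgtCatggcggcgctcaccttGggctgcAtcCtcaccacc
Spcs3: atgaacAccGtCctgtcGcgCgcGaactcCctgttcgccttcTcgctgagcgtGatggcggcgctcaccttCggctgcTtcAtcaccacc

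The 3′UTRs of the copies were not alike. They measured 898 nt in Arxes1 and 854 nt in Arxes2, and their longest shared run was 16 nt, directly after the stop codon. Of the windows of 50 nt within the coding sequence, 0 of 494 were unique to either copy, and of all 50-nt windows 61.1% in Arxes1 and 59.9% in Arxes2 were unique among GENCODE transcripts. Of the unique windows, 882 of 936 in Arxes1 and 838 of 888 in Arxes2 reached into the 3′UTR. Since STAR counts only reads that align to 1 place, the counts of Arxes1 and Arxes2 come nearly all from their 3′UTRs and say nothing of which copy supplied a coding read. The other members were less affected, with 100% of windows unique in Sec11a and Sec11c, 99.2% in Spcs3, 94.9% in Spcs2 (the rest shared with a pseudogene, Spcs2-ps) and 81.9% in Spcs1 (the rest shared with Glt8d1). Windows were compared on both strands, so a match to a gene on the opposite strand also made a window not unique.

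Upstream of their starts the copies were again the same. RefSeq promoter windows (GRCm38.p6, 300 bases) were found for 5 of the 7 members, and those of Arxes1 and Arxes2 differed at 0 positions. The 250 bases before the start lie at X:136033117-136033366 for Arxes1 and X:135993570-135993819 for Arxes2, plus strand. They are printed once because the total and polysomal values below are those of a pair with a common upstream sequence. Capitals mark the GC box GGGCGG, searched on both strands as GGGCGG and CCGCCC, which occurred 2 times in these 250 bases. Of all 32851 promoter windows, searched over their full 300 bases, 35.7% held a match.
Arxes1 and Arxes2 upstream: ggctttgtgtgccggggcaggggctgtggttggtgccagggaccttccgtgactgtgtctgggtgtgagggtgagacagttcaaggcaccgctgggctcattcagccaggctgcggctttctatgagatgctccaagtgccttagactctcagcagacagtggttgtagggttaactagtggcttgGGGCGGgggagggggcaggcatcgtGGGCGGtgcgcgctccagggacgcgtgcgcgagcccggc

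In control total RNA, the members lay in 3 ranges of abundance when counts were scaled by library and by the length of the longest protein coding transcript (FPKM, CPM per kilobase). Sec11c was at 143 ± 5.06 (SD, n = 2) and Spcs1 at 137 ± 3.9, with overlapping libraries. Spcs2 at 87.7 ± 2.17 and Sec11a at 87.7 ± 0.772 overlapped as well. Spcs3 at 22.3 ± 1.69 overlapped with Arxes1 at 21.9 ± 1.26, and Arxes2 was lowest at 19.6 ± 1.15, below both libraries of Arxes1. The order depended on the denominator. Counts are per gene, and all annotated exons cover 6808 nt in Sec11c, 4614 nt in Sec11a and 4221 nt in Spcs2. The transcripts used as divisors have 860, 1345 and 2909 nt, and the unique windows below come from the same transcripts. Which transcripts were present was not tested and values by total exon length were not computed. The 3 ranges hold only for the divisor used. Per kilobase of unique 50-nt windows, which allows for coding reads that cannot be assigned, Arxes1 was at 37.0 ± 2.12 and Arxes2 at 33.9 ± 1.98. Spcs3 was at 22.8 ± 1.72, so that both copies then stood above their parent gene without overlap. The Spcs3 value assumes its full annotated transcript of 3466 nt, whose end had only 20 to 44 reads in each 3′ end library. The annotated end of Arxes1 had 175 to 245 reads in each 3′ end library, and that of Arxes2 had 1392 to 1775. Whether Spcs3 or Arxes1 RNA ends earlier, which would raise the value of that gene, was not tested. Per kilobase of unique windows, Spcs1 at 176 ± 5.01 stood above Sec11c at 151 ± 5.37, and Spcs2 at 94.0 ± 2.33 above Sec11a at 91.1 ± 0.801, each without overlap. The place of Spcs1 rests on leaving out its windows shared with Glt8d1, matched on either strand. Whether reads from those windows could be assigned by strand was not tested.

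Arxes2 was higher in polysomal RNA of HuD cells while its total RNA stayed near the control level. Its polysomal values were 31.1 and 34.9 CPM in control and 48.9 and 52.6 CPM in HuD libraries. The lowest HuD library was above the highest control library, as was so for 14.1% of all 14906 genes tested (and 14.6% in the other direction). In total RNA, Arxes2 was at 28.8 and 31.3 CPM in control and 28.2 and 33.7 CPM in HuD libraries, and the groups overlapped. The fitted log2 change was 0.62 ± 0.11 (SE) in polysomal RNA, a fold of 1.54, against 0.04 ± 0.11 in total RNA. Without POL-Seq control replicate 1 the polysomal change was 0.54 ± 0.12, and without replicate 2 it was 0.71 ± 0.12. Without each of the 8 libraries in turn it was between 0.54 and 0.71.

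Translation efficiency (TE), the ratio of polysomal to total RNA, was 1.08 and 1.11 for Arxes2 in same-numbered control libraries and 1.73 and 1.56 in HuD libraries. Each library was scaled to its own total, so TE is relative to other genes and has no absolute level. A shift of all RNA onto polysomes would not be seen. The paper reports that HuD overexpression raised global translation efficiency and de novo protein synthesis. The fitted TE change was 0.58 ± 0.16 on the log2 scale, and between 0.46 and 0.72 with each library left out in turn. In control cells the scaled polysomal level of Arxes2 was close to its scaled total level, with a log2 difference of 0.13 ± 0.11. The panels show the counts of each member by library.

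**Figure D1:**
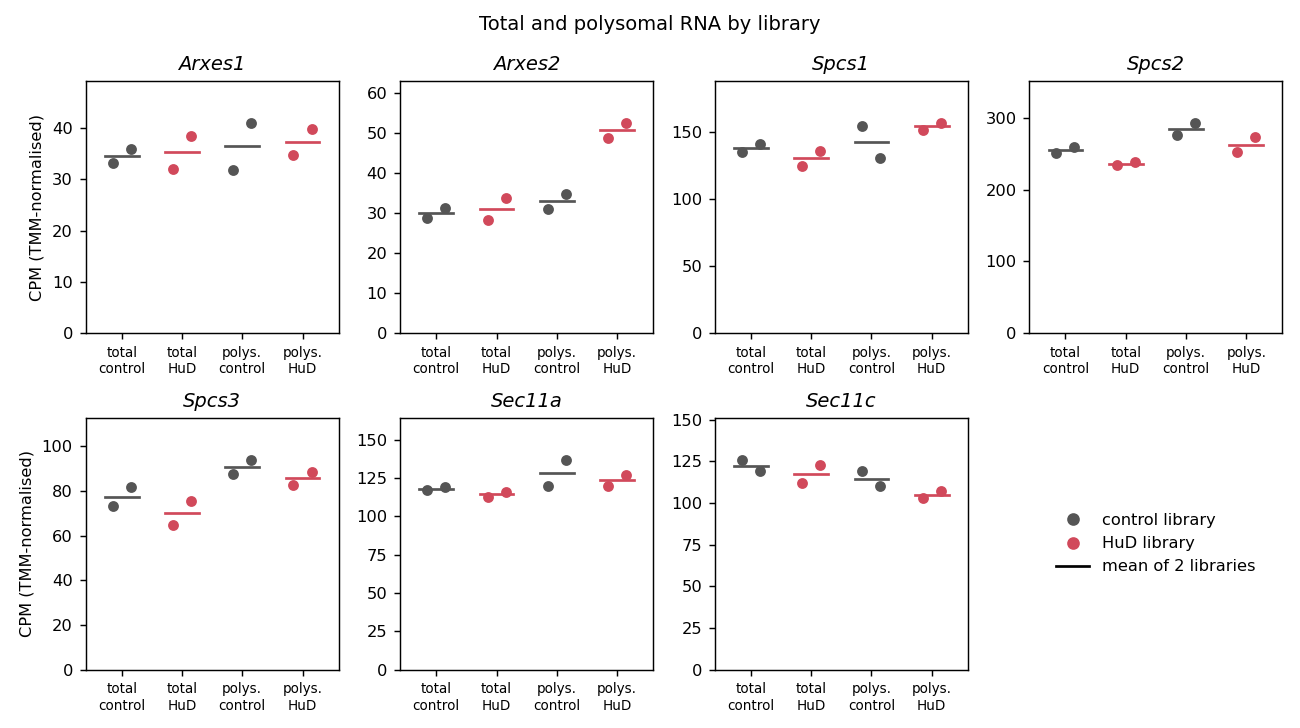
Total and polysomal RNA of the 7 members in TMM-normalised CPM, from 0, with a point for each library and a line for the mean of 2 libraries in each of 4 groups (control in grey, HuD in red). The 2 HuD polysomal libraries of Arxes2, which was chosen on these values, sit at 48.9 and 52.6 CPM. They are above its control polysomal libraries, as was so for 14.1% of all genes tested. The HuD polysomal libraries of Arxes1 lie within the range of its other libraries.

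Arxes1, the copy with the same coding sequence and upstream bases, overlapped between control and HuD in both fractions. In polysomal RNA it was at 31.9 and 41.0 CPM in control and 34.8 and 39.8 CPM in HuD libraries, with both HuD values inside the control range. In total RNA it was at 33.2 and 36.0 CPM in control and 32.1 and 38.4 CPM in HuD libraries, again overlapping. The log2 change was 0.04 ± 0.14 in polysomal RNA (95% interval −0.28 to 0.35, adjusted p = 0.987 in edgeR's quasi-likelihood test) and 0.01 ± 0.20 in TE (−0.43 to 0.45, adjusted p = 1.00). Without POL-Seq control replicate 1 the polysomal change of Arxes1 was −0.14 ± 0.13 and its TE change −0.17 ± 0.17, and without replicate 2 they were 0.23 ± 0.13 and 0.20 ± 0.16. The difference between the copies was not tested because Arxes2 was chosen on this contrast.

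The counts of the copies can be set against each other within a library, which removes any scaling between libraries. Arxes2 made up 46.5% and 46.5% of the reads assigned to either copy in control total RNA, and 46.8% and 46.7% in HuD total RNA. In polysomal RNA its share was 49.3% (95% exact binomial interval 47.1 to 51.5) and 45.9% (43.5 to 48.4) in control libraries, and 58.4% (56.6 to 60.1) and 56.9% (55.1 to 58.7) in HuD libraries. The intervals cover counting error only, and they are no test because Arxes2 was chosen on these values. Of the 8 libraries, the 2 of HuD polysomal RNA were the only ones with more Arxes2 than Arxes1 reads, at 1.40 and 1.32 reads to 1. Against the parent gene, the ratio of Arxes2 to Spcs3 counts was 0.355 and 0.371 in control and 0.590 and 0.595 in HuD polysomal RNA, and 0.394 and 0.384 in control and 0.437 and 0.446 in HuD total RNA.

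The accessory subunits showed smaller differences. Spcs2 was the most abundant by CPM, with 251 and 260 in control and 235 and 238 in HuD total RNA, and 277 and 293 in control and 252 and 273 in HuD polysomal RNA. Its HuD libraries were below the controls in both fractions, as were those of 16.7% of all genes in total RNA (15.1% were above) and 14.6% in polysomal RNA. The log2 change was −0.11 ± 0.08 (adjusted p = 1.00) in total and −0.12 ± 0.08 (adjusted p = 0.969) in polysomal RNA by edgeR's quasi-likelihood test, and −0.01 ± 0.12 in TE.

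Spcs3, the parent of the Arxes copies, was at 73.3 and 81.5 CPM in control and 64.7 and 75.5 CPM in HuD total RNA, and at 87.4 and 93.9 CPM in control and 82.8 and 88.5 CPM in HuD polysomal RNA, so that the groups overlapped in both fractions. Its log2 change was −0.14 ± 0.10 in total and −0.08 ± 0.10 in polysomal RNA. Spcs1, a small accessory subunit, was at 135 and 141 CPM in control and 125 and 136 CPM in HuD total RNA, and at 155 and 131 CPM in control and 152 and 157 CPM in HuD polysomal RNA, with overlap in both. Its TE was 1.14 and 0.930 in control and 1.22 and 1.16 in HuD cells without overlap, as was so for 18.6% of all genes (20.0% in the other direction), and its TE change of 0.20 ± 0.14 did not pass (adjusted p = 1.00, edgeR's quasi-likelihood test). The value of Spcs1 rested on the POL-Seq controls. Without control replicate 1 its polysomal change was 0.24 ± 0.09 (unadjusted p = 0.0264, adjusted p = 0.17, edgeR's quasi-likelihood test) and its TE change 0.32 ± 0.12 (unadjusted p = 0.0197, adjusted p = 0.277), and without replicate 2 they were 0.00 ± 0.09 and 0.09 ± 0.11. Spcs2 and Spcs3 had polysomal changes of −0.16 ± 0.09 and −0.13 ± 0.11 without replicate 1, and of −0.07 ± 0.08 and −0.02 ± 0.10 without replicate 2. Their TE changes were −0.05 ± 0.11 and 0.01 ± 0.15, and 0.03 ± 0.11 and 0.12 ± 0.14, in the same order.

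In scaled counts, the catalytic subunits were also near their control levels. Sec11a was at 117 and 119 CPM in control and 113 and 116 CPM in HuD total RNA, without overlap (16.7% of all genes were lower in this way), and at 120 and 137 CPM in control and 120 and 127 CPM in HuD polysomal RNA. Sec11c was at 119 and 110 CPM in control and 103 and 107 CPM in HuD polysomal RNA, without overlap (14.6% of all genes were lower in this way), and at 126 and 119 CPM in control and 112 and 123 CPM in HuD total RNA. The log2 changes of Sec11a were −0.04 ± 0.09 in total and −0.06 ± 0.09 in polysomal RNA, and those of Sec11c −0.06 ± 0.09 and −0.12 ± 0.09. Without POL-Seq control replicate 1 the polysomal changes of Sec11a and Sec11c were −0.15 ± 0.08 and −0.07 ± 0.09 and their TE changes −0.11 ± 0.11 and 0.00 ± 0.12. Without replicate 2 the polysomal changes were 0.04 ± 0.08 and −0.17 ± 0.09 and the TE changes 0.09 ± 0.10 and −0.11 ± 0.12. Sec11c was the 1 member with a TE below 1 in every same-numbered library pair, at 0.945 and 0.920 in control and 0.922 and 0.872 in HuD cells. A TE of 1 is no absolute level, since each library was scaled to its own total. The numbers alone do not pair these libraries, and Sec11c was at 119 CPM in both POL-Seq control replicate 1 and RNA-Seq control replicate 2.

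Of the 6 members other than Arxes2, 0 passed an adjusted p of 0.05 in total RNA, polysomal RNA or TE by edgeR's quasi-likelihood test, and 0 were under an unadjusted p of 0.05. Over all 14906 genes, 2.64% in total RNA, 4.17% in polysomal RNA and 0.979% in TE were under an unadjusted p of 0.05, and 0.0% passed the adjusted threshold in each. Over 228 alternative fits of these 6 genes and 3 comparisons, 0 gave an adjusted p under 0.05, and the smallest was 0.17. Under an unadjusted p of 0.05 there were 2 of these fits, both of Spcs1 without POL-Seq control replicate 1, and 0 of the 18 by DESeq2. The 95% intervals of the polysomal change of these 6 genes reached from −0.32 to 0.35 on the log2 scale.

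**Figure D2:**
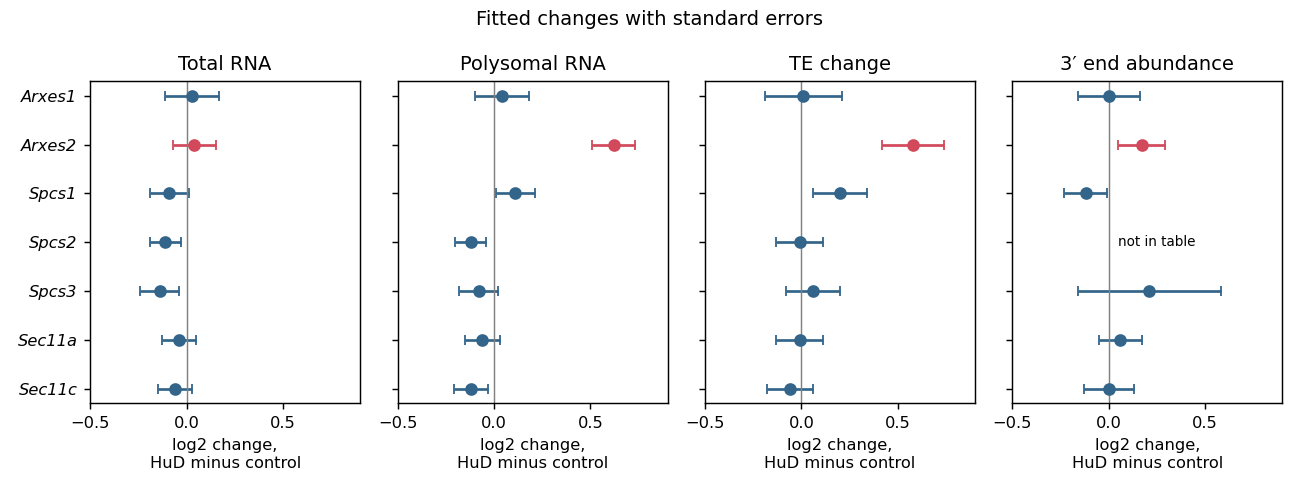
Fitted log2 changes (HuD minus control) of the 7 members in total RNA, polysomal RNA, TE and 3′ end abundance, with bars of 1 standard error, Arxes2 in red. Arxes2 stands at 0.62 in polysomal RNA and 0.58 in TE, while its total RNA lies at 0.04, and Spcs2 is absent from the 3′ end table.

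In control cells, the polysome association of the members, relative to that of other genes, could be read without induced HuD. Polysomal RNA was above total RNA without overlap for Spcs2, Spcs3 and Sec11a (18.9% of all genes) and below it for Sec11c (20.1% of all genes). The largest difference was that of Spcs3, 0.23 ± 0.10 on the log2 scale, with an adjusted p of 0.465 in edgeR's quasi-likelihood test. Of the members other than Arxes2, 0 passed at an adjusted or unadjusted p of 0.05, against 0.174% and 10.7% of all genes, and 0 did so by DESeq2. With the replicate block, Spcs3 (0.23 ± 0.07) and Spcs2 (0.16 ± 0.06) were under an unadjusted p of 0.05 (adjusted p = 0.169 and 0.213, edgeR's quasi-likelihood test). Without POL-Seq control replicate 1, Spcs3 (0.28 ± 0.11), Spcs2 (0.20 ± 0.09) and Sec11a (0.22 ± 0.08) were under it, with adjusted p of 0.118, 0.143 and 0.109. Spcs3 was also under it without either HuD library of total RNA or without RNA-Seq control replicate 2.

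**Figure D3:**
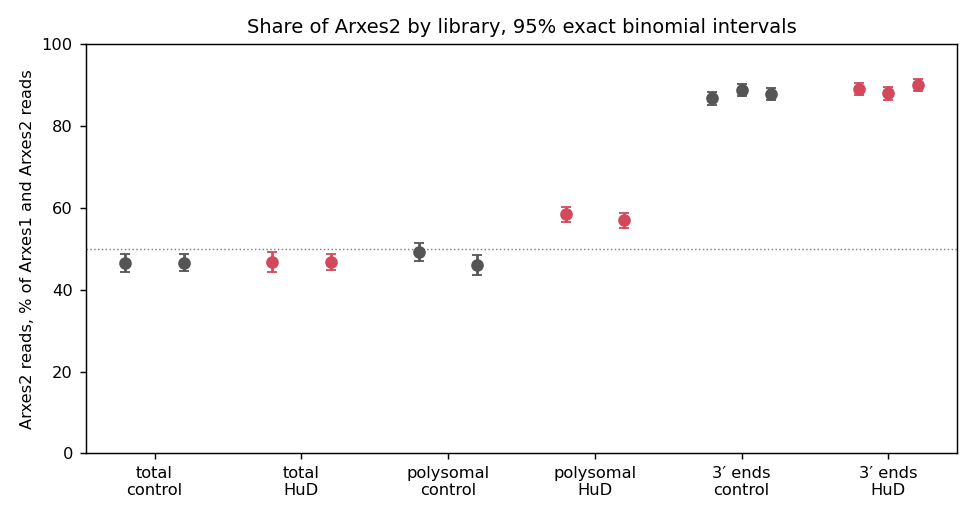
Arxes2 reads as a percentage of all reads assigned to Arxes1 or Arxes2, for each library of total RNA, polysomal RNA and 3′ ends, with 95% exact binomial intervals (control in grey, HuD in red, dotted line at equal counts). HuD polysomal libraries stand at 58.4% and 56.9% above the other RNA-Seq and POL-Seq libraries, and all 3′ end libraries lie between 86.7% and 90.1%. Arxes2 was chosen on its RNA-Seq and POL-Seq values, so the intervals of those libraries are no test.

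The 3′ end libraries were not used to choose Arxes2 and permit a test of RNA abundance. Their labels name no polysomal fraction, so they cannot test the polysomal or TE change of Arxes2. Each copy had 1 listed end, at the annotated end of its transcript. Arxes2 was at 124, 130 and 144 CPM in control and 154, 144 and 150 CPM in HuD libraries. The groups did not overlap but met at 144 CPM, and 6.09% of all genes were higher without overlap (5.78% lower). The log2 change was 0.17 ± 0.12 (adjusted p = 0.946, edgeR's quasi-likelihood test), and with the replicate number as a block, which the 3 numbered pairs allow, it was 0.17 ± 0.08 (adjusted p = 0.285). Arxes1 was at 19.0, 16.3 and 19.9 CPM in control and 18.9, 19.7 and 16.5 CPM in HuD libraries, with full overlap and a log2 change of 0.00 (95% interval −0.36 to 0.35).

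The copies differed far more from each other at their 3′ ends than in RNA-Seq. Arxes2 supplied 87.8% ± 1.08 (SD, n = 3) of the reads at the ends of either copy in control and 89.0% ± 1.03 in HuD libraries, against 46.5% in both control libraries of total RNA. The 3′ end counts were 1392 to 1775 for Arxes2 and 175 to 245 for Arxes1. The share was 1.25 percentage points higher in HuD than in control libraries (two-sided exact permutation test p = 0.2, where 0.1 is the smallest p that 3 against 3 allow). It was higher in HuD in 2 of 3 same-numbered pairs (exact permutation within pairs, p = 0.5). The 2 assays count different parts of the transcript, and reads at ends outside the authors' list were not counted.

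Among the complex subunits, Spcs1 was at 176, 180 and 196 CPM in control and 173, 167 and 167 CPM in HuD 3′ end libraries. Its HuD values were all below the controls, as were those of 5.78% of all genes, with a log2 change of −0.12 ± 0.11 (adjusted p = 0.973, edgeR's quasi-likelihood test). Sec11c, counted 19 nt before its annotated end, was at 285, 264 and 319 CPM in control and 305, 256 and 306 CPM in HuD libraries. Spcs3 had few reads at its only listed end, the annotated end of its 3′UTR of 2830 nt, with 21 to 44 reads in control and 20 to 44 in HuD libraries, and a log2 change of 0.21 ± 0.37.

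Sec11a was the only member with 2 listed ends more than 20 nt apart. The distal end took 14.9%, 12.3% and 12.1% of its reads in control and 15.3%, 14.9% and 14.8% in HuD libraries, and the other end, 189 nt before it, took the rest. The groups overlapped, and the difference of 1.91 percentage points gave a two-sided exact permutation p of 0.2. The share was higher in HuD in 3 of 3 same-numbered pairs, and an exact permutation within pairs gave p = 0.25, the smallest that 3 pairs allow. In the test of site usage across 1434 genes, Sec11a had an adjusted p of 1.00 without and with the replicate block (diffSpliceDGE with Simes' method). Genes under an unadjusted p of 0.05 in site usage made up 0.488% (7 genes, 41 with the block) and 0.0% passed the adjusted threshold.

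In 3′ end abundance, 0 of 6 members passed at an adjusted p of 0.05 by edgeR's quasi-likelihood test or DESeq2, and 0 were under an unadjusted p of 0.05. Of 9621 genes, 5.86% were under an unadjusted p of 0.05 (564 genes, 1797 with the block) and 0.0416% passed after adjustment (4 genes, 251 with the block). Elavl4 itself was at 95.9, 47.1 and 96.7 CPM in control and 67.1, 39.2 and 64.3 CPM in HuD 3′ end libraries, with a log2 change of −0.49 ± 0.29 (adjusted p = 0.922), or −0.46 ± 0.10 with the block (adjusted p = 0.0269). The ends listed are those of the mouse gene, not of the lentiviral cDNA, and do not check the labels of these libraries.

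**Figure D4:**
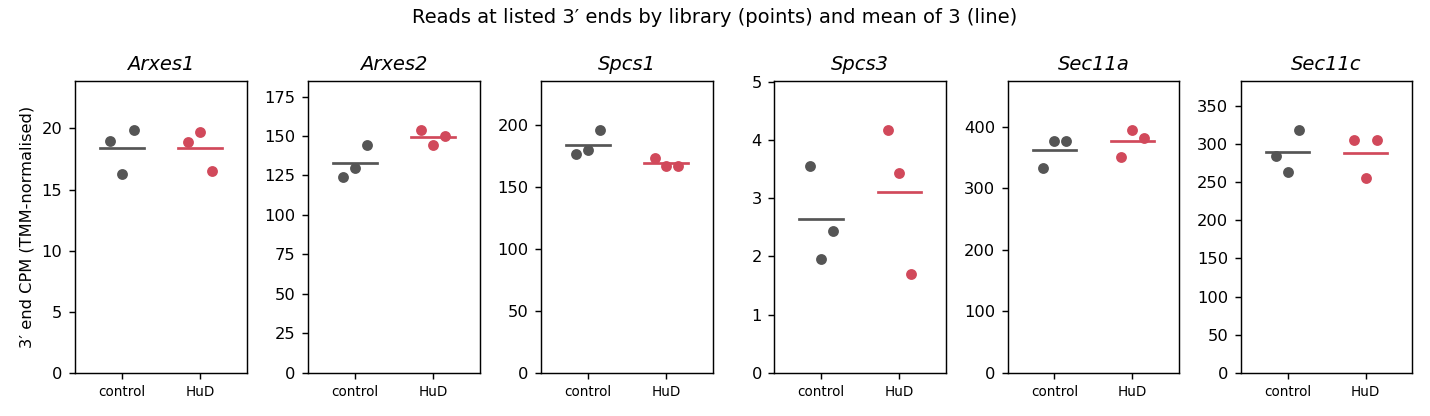
Reads at the listed 3′ ends of 6 members in TMM-normalised CPM, from 0, with a point for each of 3 control (grey) and 3 HuD (red) libraries and a line for their mean. Arxes2 lies between 124 and 154 CPM and Arxes1 between 16.3 and 19.9 CPM.

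HuD binding sites were listed for 2 accessory subunits and for neither Arxes copy. CRAC reads and deletions, which reverse transcription leaves at crosslinked bases, were deposited pooled over 3 libraries, so there is no replicate error. Of 12953 protein coding genes with RNA-Seq counts, 9.90% had a listed window. Spcs2 had 4 windows, all in its 3′UTR between 567 and 644 nt after the stop codon, and Spcs3 had 1, at 593 nt after its stop codon. Arxes1, Arxes2, Spcs1, Sec11a and Sec11c had 0. The list holds only windows with at least 6 reads and 3 deletions whose sequence also scored above the authors' threshold against their U-rich positional weight matrix. Absence from it therefore sets no limit on binding, and reads from the shared coding sequence of the copies align to more than 1 place. The 29-nt sites are shown with the listed 7-nt window in capitals, in transcript order (both genes on the minus strand, GRCm38).
Spcs2, 7:99839124-99839130: guguauauauaUAUUUGAcuuggggagaa
Spcs2, 7:99839105-99839111: uuggggagaauUAUUUUUuacaaaaauac
Spcs2, 7:99839070-99839076: gcuuuuuaauuUGUUUAAaauagaccugc
Spcs2, 7:99839047-99839053: accugccuguuACUUUUUgugcucuuaac
Spcs3, 8:54522664-54522670: gaggaagaaccUGUUUGUaugcugaaaaa

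Each window holds a run of at least 3 U, but windows were listed by their score against a U-rich matrix, so this follows from their selection. The first 2 windows of Spcs2 had 440 and 444 reads in HuD and 2 each in control cells, with 3 and 8 deletions. The other 2 had 64 and 70 reads in HuD and 0 in control cells, with 6 and 5 deletions. Summed over windows, Spcs2 had 1018 reads, in which a read spanning neighbouring windows counts more than 1 time, and it ranked 33 among 1304 protein coding genes by this sum, whose median was 27. Spcs3 ranked 978 with 11 reads, but 10 of them carried a deletion, and control reads were at 0.

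**Figure D5:**
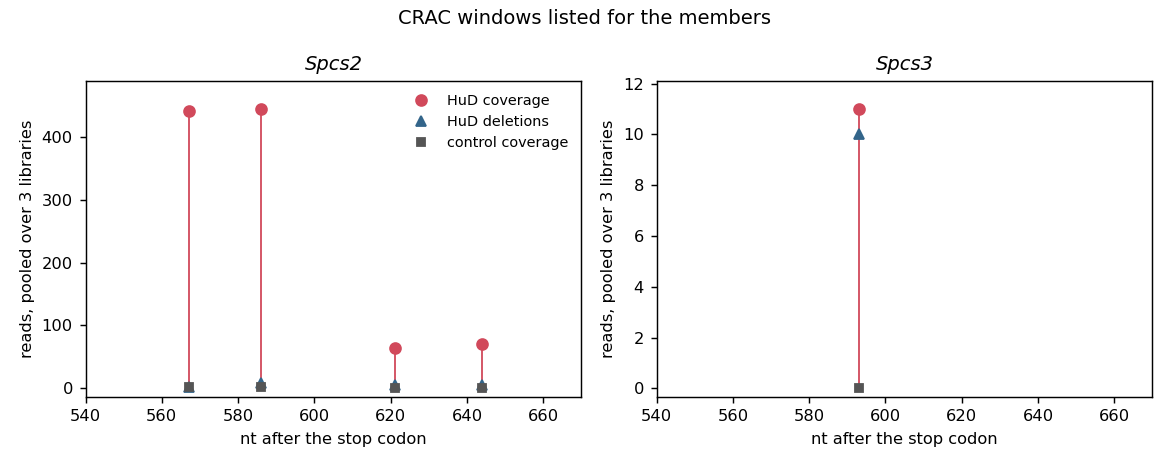
CRAC windows in the 3′UTRs of Spcs2 and Spcs3 by distance from the stop codon (nt), with pooled reads in HuD cells (red), deletions in HuD cells (blue) and reads in control cells (grey). The y axes differ, with 440 and 444 reads at the highest windows of Spcs2 and 11 at that of Spcs3.

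U-rich motifs were about as dense in the 3′UTR of Arxes2 as in those of Arxes1 and Spcs3. The 4-nt motif of A, C or G followed by UUU, searched on the transcript strand, occurred 3.16 times per 100 nt of 3′UTR in Arxes2 and 3.12 times in Arxes1. It occurred 3.18 times in Spcs3, 2.94 in Sec11a, 2.58 in Spcs1, 2.34 in Sec11c and 1.97 in Spcs2. Over 19745 3′UTRs of at least 100 nt, the median was 2.15 and the quartiles 1.49 and 2.85. Spcs2, the member with the most CRAC reads, thus had the fewest motifs per length. By number it had 42, the most after the 90 of Spcs3. CRAC reads were not scaled by RNA level, and Spcs2 was the most abundant member by CPM.

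Other genes of protein translocation and signal peptide handling were taken from a list of 45, of which 42 were tested. The list held the signal recognition particle and its receptor, the Sec61 channel, the translocon-associated protein complex, oligosaccharyltransferase, signal peptide peptidases, GPI transamidase and, outside the endoplasmic reticulum, 2 genes of the mitochondrial inner membrane peptidase. Unique windows were computed for the members only, so sequence that genes of the list share with other genes was not examined. By edgeR's quasi-likelihood test 0 genes passed at an adjusted p of 0.05 in total RNA, polysomal RNA or TE. The median log2 change was −0.07 in total RNA (36 of 42 below 0), −0.01 in polysomal RNA (24 below 0) and 0.09 in TE (31 above 0), beside medians of 0.00, −0.01 and −0.01 over all genes. At an unadjusted p of 0.05, 0 genes of the list were called in total RNA and TE and 2 in polysomal RNA, beside 2.64%, 0.979% and 4.17% of all genes. The 2 genes were Sec61a2, a channel subunit, at 59.0 to 63.8 CPM in control and 69.4 to 71.8 CPM in HuD libraries (log2 0.20 ± 0.09, adjusted p = 0.969), and Srp54b, a subunit of the signal recognition particle, at 37.3 to 48.7 CPM and 34.2 to 36.1 CPM (−0.29 ± 0.12, adjusted p = 0.969).

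In control cells, the same list had 4 of 42 genes under an unadjusted p of 0.05 for polysomal against total RNA, beside 10.7% of all genes. The 3 with the smallest p were Gpaa1 of GPI transamidase at −0.37 ± 0.10, the signal peptide peptidase relative Sppl2a at 0.27 ± 0.09 and the translocon-associated Ssr3 at 0.26 ± 0.10, with adjusted p of 0.405, 0.462 and 0.462 in edgeR's quasi-likelihood test. At 3′ ends, 37 genes were tested and 2 were under an unadjusted p of 0.05 (5.86% of all genes), Sppl2b at −0.48 ± 0.14 (adjusted p = 0.553) and Gpaa1 at −0.40 ± 0.17 (adjusted p = 0.835). The median 3′ end change of the list was 0.06, beside 0.00 over all genes.

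The genes whose log2 CPM most resembled Arxes2 over the 8 libraries were Hnrnph3, Zfp944, Rab39b, Rnf103 and Pfn2, with Pearson correlations of 0.993, 0.975, 0.963, 0.960 and 0.960 among 12905 genes with a mean of at least 1 CPM. The libraries are shared by all genes, and the correlation follows from the pattern for which Arxes2 was chosen. Their polysomal log2 changes were smaller, at 0.17, 0.33, 0.41, 0.20 and 0.32, beside total RNA changes of 0.02, 0.08, 0.18, 0.00 and −0.03. Rab39b and Pfn2 had a listed CRAC window, and the other 3 had none. Of the members, Spcs1 was the most similar to Arxes2 (0.677) and Sec11c the least (−0.745).

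The genes next to Arxes2 on the X chromosome overlapped between control and HuD in polysomal RNA. Arxes1 is the next gene on 1 side. On the other, the nearest gene with counts was Bhlhb9 (X:135841639-135891081), at 186 and 293 CPM in control and 209 and 210 CPM in HuD polysomal RNA, with a log2 change of −0.19 ± 0.19 (adjusted p = 0.969, edgeR's quasi-likelihood test).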

How the data were processed

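The deposited RNA-Seq and POL-Seq values are raw gene counts that the authors made with STAR 2.5.3a (GRCm38.p4, Gencode M6), which counts uniquely aligned reads. The deposited 3′ end values are counts of reads whose start lies at most 10 nt from a known polyadenylation site. For CRAC the authors deposited, for each site, a signal of read coverage and a count of deletions pooled over replicates, a score against their positional weight matrix and a combined p-value, of which the last 2 are not printed here. Members, gene lists and tests were chosen with earlier results of these data known.

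Counts were tested with edgeR 4.0.16 in R 4.3.3 (TMM, filterByExpr, quasi-likelihood test, Benjamini-Hochberg adjustment over all genes). RNA-Seq and POL-Seq libraries shared 1 fit with a mean per group, and TE was the interaction. 3′ end sites of a gene within 20 nt were merged to the site with the highest count. CPM used TMM-scaled library sizes, correlations used log2(CPM + 0.5), and ± is an SE for changes and an SD for levels. Intervals of changes are 95% t intervals with the degrees of freedom of the quasi-likelihood fit. Replicates are biological by the methods. For 3′ ends, deviations of the same-numbered libraries correlated (r = 0.412, 0.675 and 0.53), and the numbers were used as pairs. The labels give only replicate numbers, and differently numbered libraries were not compared, so the pairing is an assumption. Alternatives were DESeq2 1.42.0, upper quartile scaling, no filter, the replicate block, unmerged sites, single fractions and leaving out each library. A permutation within same-numbered pairs of 3′ end libraries was added after the data were seen. Named genes were the members, Elavl4, up to 3 genes of the list per comparison with the smallest p under 0.05, the 5 genes most correlated with Arxes2 and its neighbours with counts. Transcripts, lengths and windows came from GENCODE vM21 (GRCm38), promoters from RefSeq (GRCm38.p6). CRAC windows match the transcripts 1 nt below their listed start, and the matching positions are printed. Procedures were tested on simulated data. Python 3.11.15, SciPy 1.17.1, pandas 2.3.3 and matplotlib 3.10.9 were used.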

Additional observations from a re-analysis of the deposited data

How the results depend on the processing

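With 2 libraries a group, small changes cannot be detected and no exact test reaches 0.05. The polysomal and TE values of Arxes2 kept their direction under every alternative (0.54 to 0.71 and 0.46 to 0.72), while its total RNA change was between −0.09 and 0.16. Arxes2 was chosen for this pattern and the alternatives refit the same libraries, so they are no separate evidence for it. Low 3′ end counts limit Spcs3.

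Counts of genes under an unadjusted p of 0.05 in total RNA, polysomal RNA, TE, polysomal against total RNA in control cells, and 3′ end abundance were 918, 1386, 362, 3071 and 1797 with the replicate block, and site usage gave 41. The block on RNA-Seq and POL-Seq numbers rests on 2 pairs, whose deviations correlated between 0.24 and 0.494, and the numbers alone do not pair these libraries. With it, Spcs2 and Spcs3 came under an unadjusted p of 0.05 for polysomal against total RNA in control cells, and it changed no other call of the members. After adjustment the block gave 41 genes for polysomal against total RNA in control cells and 251 for 3′ ends. DESeq2 gave 175, 369 and 50 unadjusted in total RNA, polysomal RNA and TE, and after adjustment 1, 3, 67 (control cells) and 34 (3′ ends). A fit to the 4 libraries of the fraction gave 1 adjusted gene in total RNA and 315 unadjusted in polysomal RNA.

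Without 1 library, unadjusted counts ranged from 218 to 734 (total), 243 to 3262 (polysomal), 100 to 2024 (TE), 580 to 4812 (control cells), 324 to 1287 (3′ ends) and 4 to 17 (site usage), and adjusted counts from 0 to 1, 0 to 372, 0 to 47, 0 to 2145 and 2 to 11. The highest values for polysomal RNA, TE and control cells were those without POL-Seq control replicate 1, and for total RNA that without POL-Seq control replicate 2. For 3′ ends and site usage the highest were those without HuD replicate 2. The lowest were those without RNA-Seq control replicate 2 (total), POL-Seq HuD replicate 2 (polysomal), RNA-Seq control replicate 1 (control cells) and 3′ end HuD replicate 1.

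Changes that did not pass turned direction without 1 library. In total RNA these were Arxes1 (−0.11 to 0.15) and Sec11c (−0.13 to 0.00), in polysomal RNA Arxes1 (−0.14 to 0.23) and Sec11a (−0.15 to 0.04). In TE they were Arxes1 (−0.17 to 0.20), Spcs2 (−0.08 to 0.04), Spcs3 (−0.05 to 0.18), Sec11a (−0.11 to 0.09) and Sec11c (−0.13 to 0.01). In control cells they were Arxes1 (−0.13 to 0.24) and Spcs1 (−0.08 to 0.16), and at 3′ ends Arxes1 (−0.08 to 0.07), Spcs3 (−0.05 to 0.51), Sec11a (0.00 to 0.11) and Sec11c (−0.07 to 0.08). Upper quartile scaling turned the 3′ end changes of Arxes1 (0.00) and Sec11c (0.01), and unmerged sites that of Sec11c (0.01).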
